A study of Rattus norvegicus with 19 samples.

Results

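The genes described here are 8 members of the Notch pathway in the rat: the receptors Notch1, Notch2 and Notch3, the ligands Jag1 and Dll1, and the target genes Hes1, Hey1 and Hey2. They were chosen by name, as genes to which the array's annotation gives at least 1 probe set with no other gene symbol. They make up 8 of 14217 genes and 9 of 31099 probe sets, because Notch1 has 2 probe sets and the others have 1 each. RNA of Sprague-Dawley rat cells was measured on 19 Affymetrix arrays, on which a probe set, a group of short probes, reports a transcript. According to the labels, 5 arrays hold stem Leydig cells, 3 progenitor Leydig cells, 4 immature Leydig cells, 4 adult Leydig cells and 3 bone stem cells. The Leydig cell is the testosterone-producing cell of the testis, and the Leydig groups follow its development from stem cell to adult cell. No genotype, transgene or treatment is named for any group. The sources used here do not give the animals' ages, the isolation and culture of the cells, or whether replicates came from separate animals. The p-values therefore measure only how these samples vary, and that variation may be technical.

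Notch receptors sit in the cell membrane and bind ligands of the Jagged and Delta families on neighbouring cells. Binding leads to cleavage of the receptor, and the freed inner part enters the nucleus and joins the DNA-binding protein RBPJ to switch on target genes. Hes1, Hey1 and Hey2, the best known of these, encode transcriptional repressors of the basic helix-loop-helix class. In the testis the pathway is known for its part in keeping fetal Leydig progenitor cells from differentiating, and it also acts in blood vessel walls.

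The promoters of the target genes Hes1 and Hey2 are shown because both genes fell from stem to progenitor Leydig cells and both windows hold the letters of the RBPJ core motif. The sequences are those of RefSeq for the rat build GRCr8, which matched 7 of the 8 genes by symbol. Each window is the 250 bases before the annotated start of the gene, written 5′ to 3′ on the gene's strand, with GTGGGAA in capitals. The Hes1 window is chr11:84213046-84213295 on the minus strand, and the Hey2 window is chr1:28640850-28641099 on the plus strand.
Hes1: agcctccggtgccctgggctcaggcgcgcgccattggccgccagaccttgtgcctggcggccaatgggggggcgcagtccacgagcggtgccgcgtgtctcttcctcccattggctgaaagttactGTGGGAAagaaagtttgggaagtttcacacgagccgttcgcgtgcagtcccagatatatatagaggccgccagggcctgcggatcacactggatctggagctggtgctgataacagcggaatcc
Hey2: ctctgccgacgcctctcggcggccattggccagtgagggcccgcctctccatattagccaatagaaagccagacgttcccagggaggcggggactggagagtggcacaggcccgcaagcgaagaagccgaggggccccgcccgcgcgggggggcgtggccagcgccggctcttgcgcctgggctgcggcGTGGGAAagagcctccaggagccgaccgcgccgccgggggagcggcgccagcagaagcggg
The match began 124 bases upstream of the start in Hes1 and 61 bases upstream in Hey2. Among the 7 windows, GTGGGAA was found on either strand in 3, the third being that of Dll1, where it lay on the opposite strand. It was found in 5.27% of all 33469 rat promoter windows of this length. The E-box CACGTG, a sequence bound by basic helix-loop-helix proteins, was found in 0 of the 7 windows and in 5.59% of all windows. A match describes letters only and not a bound site.

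All values are array signals on a linear scale. Group differences are differences of means of log2(signal + 16), with the standard error (SE) from 1 limma model over all 19 arrays, and understate the change of genes with low signal. A gene passed the test, and is said to have risen or fallen, where the p-value adjusted by Benjamini-Hochberg over 31042 probe sets was below 0.05. The median signal of an array was 18.9 to 36.6, and 29.1% to 47.3% of the probe sets on an array lay under 16. The labels were set against cell type markers. The summed signal of 8 Leydig cell genes was 14366 to 22449 on the progenitor arrays, 12355 to 22836 on the immature and 21318 to 32220 on the adult arrays. On the stem Leydig arrays it was 370 to 1600, and there 6 of the 8 genes had a mean under 16, among them Cyp17a1, the steroid 17-alpha-hydroxylase (1.09 ± 0.550, SD, n = 5). Bone stem replicate 1 gave 614, against 96.1 and 83.4 on the other two bone arrays. The sum of 14 leukocyte markers ran from 13938 to 15573 on the bone stem arrays, against 717 to 1197 on the stem Leydig arrays. In RNA from a mixture of cells, fewer cells of a type and less RNA per cell cannot be told apart.

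Among the receptors, Notch1 was the one with the clear difference between stages: it was low in stem Leydig cells and higher in every later stage. Its signal was 21.3, 12.3, 37.3, 15.9 and 17.6 on the stem Leydig arrays. It was 65.1, 65.1 and 96.9 on the progenitor arrays, 53.4, 57.8, 70.6 and 62.7 on the immature, 79.3, 59.0, 52.5 and 62.7 on the adult, and 62.9, 44.1 and 43.2 on the bone stem arrays. No stem Leydig array reached the lowest array of any other group. Notch1 rose by 1.33 ± 0.19 (log2, SE) from stem to progenitor Leydig cells (limma, adjusted p = 1.14e-05). It was also higher in adult than in stem Leydig cells, by 1.13 ± 0.18 (limma, adjusted p = 1.9e-05). Stem Leydig cells were lower than bone stem cells, with a difference of -0.86 ± 0.19 (limma, adjusted p = 0.00281). Between progenitor and immature cells the difference was -0.24 (95% interval -0.66 to 0.18), and between immature and adult cells it was 0.04 (-0.35 to 0.42). Neither step passed the test. Markers of several cell types moved beside Notch1 from stem to progenitor cells, where 45.3% of all genes passed. Of 13 endothelial genes 9 rose and 1 fell, and of 14 leukocyte genes 10 rose and 1 fell. Of 8 Leydig cell genes 7 rose and 0 fell, and of 4 erythroid (red blood cell) genes 4 rose. Of 14 smooth muscle and pericyte genes 1 rose and 12 fell, and of 10 bone and mesenchymal stem genes 4 rose and 5 fell. The erythroid sum was 10.2 to 54.2 on the stem Leydig, 3456 to 5381 on the progenitor, 2486 to 5360 on the immature and 269 to 700 on the adult arrays. The leukocyte sum was 717 to 1197 on the stem Leydig arrays, 6767 to 8313 on the progenitor, 3080 to 8029 on the immature, 1019 to 2581 on the adult and 13938 to 15573 on the bone stem arrays. The endothelial sum was 413 to 612, 1193 to 2233, 362 to 1002, 696 to 3400 and 316 to 422 in the same order of groups. Within groups, Notch1 and the endothelial sum had r = 0.48 over the 19 arrays. The part of these markers in the Notch1 result was not tested.

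The second Notch1 probe set gave the same 3 calls. Its signal was 1.99, 0.822, 10.6, 2.72 and 1.02 on the stem Leydig arrays, where all 5 lay under 16. It was 35.6, 35.2 and 59.7 on the progenitor arrays, 14.5, 40.6, 30.7 and 53.9 on the immature, 38.6, 37.5, 35.1 and 39.7 on the adult, and 18.95, 16.3 and 17.6 on the bone stem arrays. Here too the stem Leydig arrays lay below all others. The difference of progenitor minus stem was 1.61 ± 0.22 (limma, adjusted p = 5.41e-06), that of adult minus stem 1.49 ± 0.20 (2.97e-06) and that of stem minus bone stem -0.81 ± 0.22 (0.0117).

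Notch2, a receptor of the same family, was dim throughout, and 17 of its 19 values lay under 16. Its signal was 11.8, 18.2, 5.15, 14.0 and 8.97 on the stem Leydig arrays and 3.89, 2.43 and 1.21 on the bone stem arrays. These groups did not overlap. The difference of 0.56 ± 0.17 passed the test (limma, adjusted p = 0.0262). The call was lost without stem Leydig replicate 2 (0.0689) or 4 (0.0582) or bone stem replicate 2 (0.0852) or 3 (0.119), with median centring (0.0612), and with the closest pairs of arrays averaged (0.103). Across the 11 progenitor, immature and adult arrays Notch2 ranged from 1.54 to 16.4. From stem to progenitor cells the difference was -0.34 ± 0.17, which did not pass (limma, adjusted p = 0.132) but did with median centring of the arrays, at -0.57 (0.0103).

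Notch3, known as the receptor of vascular smooth muscle and pericytes, passed none of the 5 tests. Its signal was 32.5, 20.9, 23.4, 37.7 and 29.3 on the stem Leydig arrays and 19.8, 26.2 and 18.1 on the progenitor arrays. It was 21.0, 21.8, 49.7 and 17.5 on the immature arrays, 43.4, 38.1, 17.7 and 32.9 on the adult arrays, and 29.5, 22.7 and 15.4 on the bone stem arrays. All groups overlapped. The difference of adult minus stem was 0.11 (95% interval -0.31 to 0.54) and that of progenitor minus stem -0.25 (-0.72 to 0.21). The summed signal of 14 smooth muscle and pericyte markers was 10680 to 19090 on the stem Leydig arrays, against 2488 to 2705 on the progenitor arrays.

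The ligands did not pass the test in any of the 5 comparisons. Jag1, a transmembrane ligand of the Jagged family, had signals of 321, 121, 121, 72.3 and 206 on the stem Leydig arrays and 142, 124 and 192 on the progenitor arrays. It had 144, 85.2, 69.1 and 163 on the immature, 136, 65.4, 117 and 96.2 on the adult, and 164, 83.3 and 102 on the bone stem arrays. The spread within the stem Leydig group was wider than the distance between any of the group means. The difference of progenitor minus stem was 0.01 (95% interval -0.70 to 0.72), and that of adult minus stem was -0.51 (-1.16 to 0.15). Dll1, a ligand of the Delta family, lay between 0.634 and 3.64 on 18 arrays and at 14.1 on adult replicate 1. All these values are below 16, where the log2 scale used here compresses differences.

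**Figure D1:**
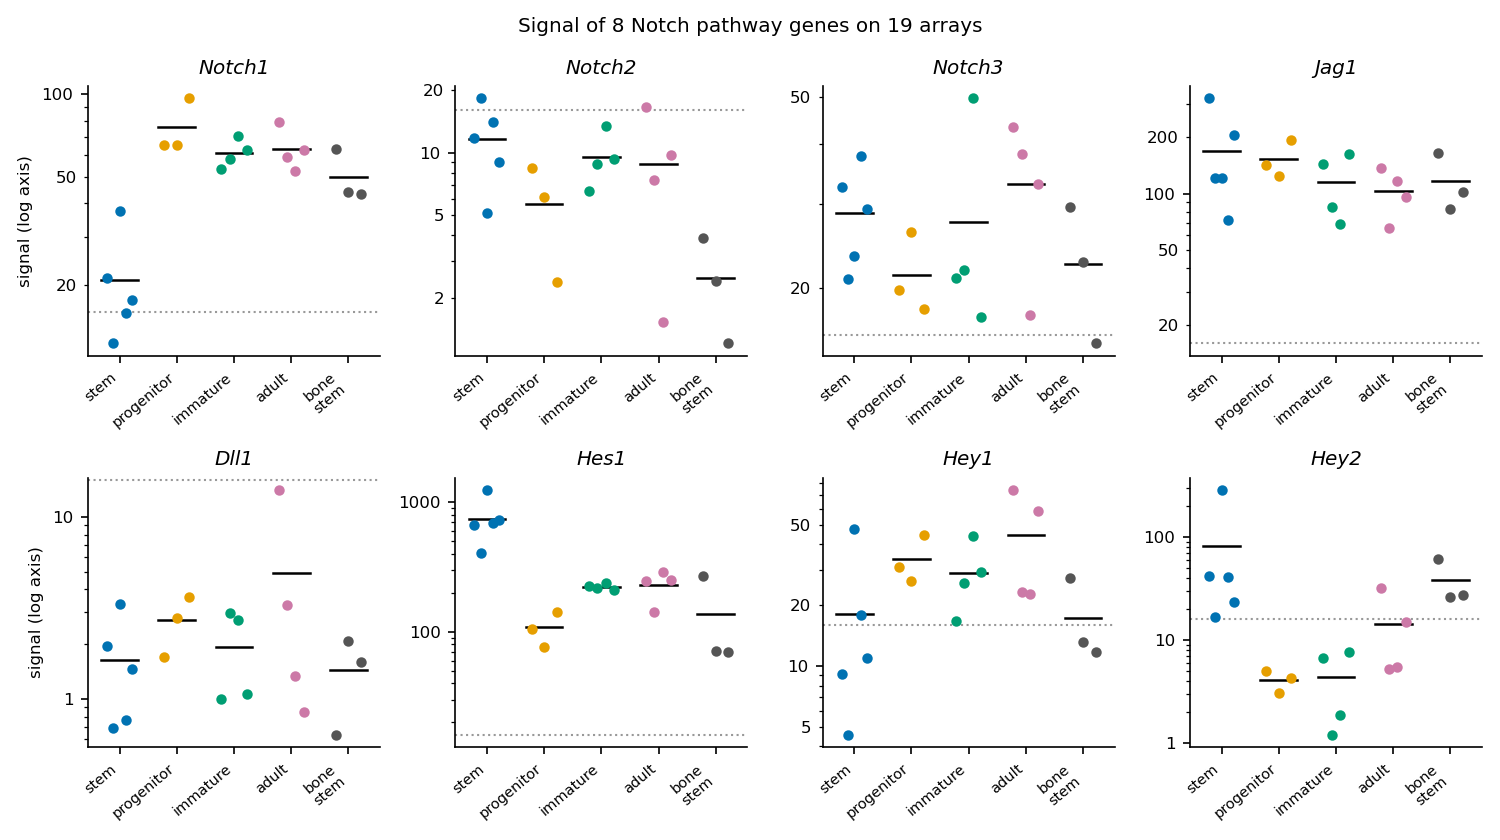
Signal of each of the 8 genes on the 19 arrays (log axis), 1 point per array and 1 panel per gene, with a bar at each group's mean and a dotted line at the signal of 16 that was added before taking logs. Notch1 lies lowest and Hes1 highest on the stem Leydig arrays, while Jag1 and Notch3 overlap across all groups and Dll1 stays below the dotted line.

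Hes1 was far lower in progenitor than in stem Leydig cells, and with 16 added to the signals its difference was the largest of the 8 genes. With 1 added, that of Hey2 was larger (-3.23 against -2.73). Its signal was 672, 407, 1251, 688 and 728 on the stem Leydig arrays and 106, 76.6 and 143 on the progenitor arrays. It was 227, 219, 238 and 211 on the immature arrays, 245, 143, 287 and 252 on the adult arrays, and 270.5, 71.3 and 69.3 on the bone stem arrays. The lowest stem Leydig array lay above the highest array of every other group. Hes1 fell by 2.57 ± 0.34 from stem to progenitor Leydig cells (limma, adjusted p = 4.27e-06). Adult cells were lower than stem Leydig cells, with a difference of -1.58 ± 0.31 (limma, adjusted p = 0.000296). Stem Leydig cells were higher than bone stem cells by 2.48 ± 0.34 (limma, adjusted p = 1.9e-05). Between these 3 comparisons the stem Leydig arrays are shared.

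The 4 immature arrays all lay above the 3 progenitor arrays for Hes1. The difference was 0.98 ± 0.36 (95% interval 0.23 to 1.72), and it did not pass the test (limma, adjusted p = 0.239). Non-overlapping groups were seen for 8.05% of all probe sets in that comparison. Between immature and adult cells the difference was 0.01 (-0.68 to 0.70). Bone stem replicate 1, which had the raised Leydig marker sum, gave the high bone value of 270.5.

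Hey2 was highest in stem Leydig and bone stem cells and low in the progenitor and immature stages. Its signal was 42.0, 16.6, 289, 40.9 and 23.6 on the stem Leydig arrays and 61.6, 26.3 and 27.6 on the bone stem arrays. On the progenitor arrays it was 4.94, 3.02 and 4.23, on the immature 6.76, 1.19, 1.87 and 7.59, and on the adult 31.9, 5.18, 5.49 and 14.9. All progenitor and immature arrays were under 16 and below every stem Leydig array. Hey2 fell by 1.73 ± 0.48 from stem to progenitor cells (limma, adjusted p = 0.00711). Without stem Leydig replicate 3, which gave 289, the difference was -1.18 ± 0.28 (0.00221). Because the progenitor signals are under the added 16, the size depends on it: the difference was -3.23 with 1 added and -0.85 with 64 added. Smooth muscle and pericyte markers moved beside Hes1 and Hey2 from stem to progenitor cells. Of 14 genes, 12 fell and 1 rose, where 45.3% of all genes passed. Their summed signal was 10680 to 19090 on the stem Leydig and 12481 to 17555 on the bone stem arrays, against 2488 to 2705 on the progenitor, 1954 to 2654 on the immature and 1420 to 3965 on the adult arrays. In bone stem cells this sum was high, as in stem Leydig cells, while Hes1 was lower there than in stem Leydig cells. Within groups, over the 19 arrays, the correlation with this sum was r = -0.04 for Hes1 and 0.15 for Hey2. With the endothelial sum it was 0.44 for each. The part of these markers in the results for Hes1 and Hey2 was not tested.

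Adult and stem Leydig cells overlapped for Hey2, since adult replicate 1 lay above 2 stem arrays. The difference of adult minus stem was -1.22 ± 0.44 (limma, adjusted p = 0.0314). It no longer passed without adult replicate 2 (0.0927), 3 (0.0908) or 4 (0.0515), and without stem replicate 3 it was -0.67 (0.0448), a move of more than 1.5 times. It also missed the threshold with 64 added (0.0719), with array weights (0.109) and with only these groups in the model (0.0915). Stem minus bone stem was 0.35 (95% interval -0.66 to 1.35) and turned to -0.20 without stem replicate 3, passing the test in neither case.

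Hey1 went the other way from Hes1 and Hey2 between stem and adult cells. Its signal was 9.17, 4.56, 47.7, 17.8 and 11.0 on the stem Leydig arrays, and 74.5, 23.1, 22.6 and 58.5 on the adult arrays. The groups overlapped, because stem replicate 3 lay above adult replicates 2 and 3. Hey1 was higher in adult cells by 0.85 ± 0.30 (limma, adjusted p = 0.0285). The call was lost without adult replicate 1 (0.128) or 4 (0.0965), without stem replicate 1 (0.0643), 2 (0.0835) or 5 (0.0606), and with only these groups in the model (0.0629). On the progenitor arrays the signal was 31.0, 26.4 and 44.7, on the immature 16.7, 25.8, 43.8 and 29.2, and on the bone stem arrays 27.3, 13.1 and 11.7. Progenitor minus stem was 0.66 ± 0.33 and did not pass (limma, adjusted p = 0.131), though it did at 0.91 without stem replicate 3 (0.0188) and with array weights (0.0423).

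Endothelial markers moved with Hey1 in some comparisons and not in others. Between adult and stem Leydig cells, where Hey1 passed, 10 of 13 endothelial genes were higher and 1 lower, against 53.7% of all genes. From stem to progenitor cells, where Hey1 did not pass, 9 were higher and 1 lower, against 45.3% of all genes. Their summed signal was 413 to 612 on the stem Leydig, 1193 to 2233 on the progenitor and 362 to 1002 on the immature arrays. The Hey1 means of these groups were 18.1, 34.0 and 28.9. On adult replicates 1, 2, 3 and 4 it was 3400, 696, 1357 and 2281. Hey1 was highest on adult replicates 1 and 4, which had the highest of these sums. Their part in the Hey1 result was not tested. Over the 19 arrays, the correlation of Hey1 with the endothelial sum, both taken as deviations from their group means, was r = 0.65.

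**Figure D2:**
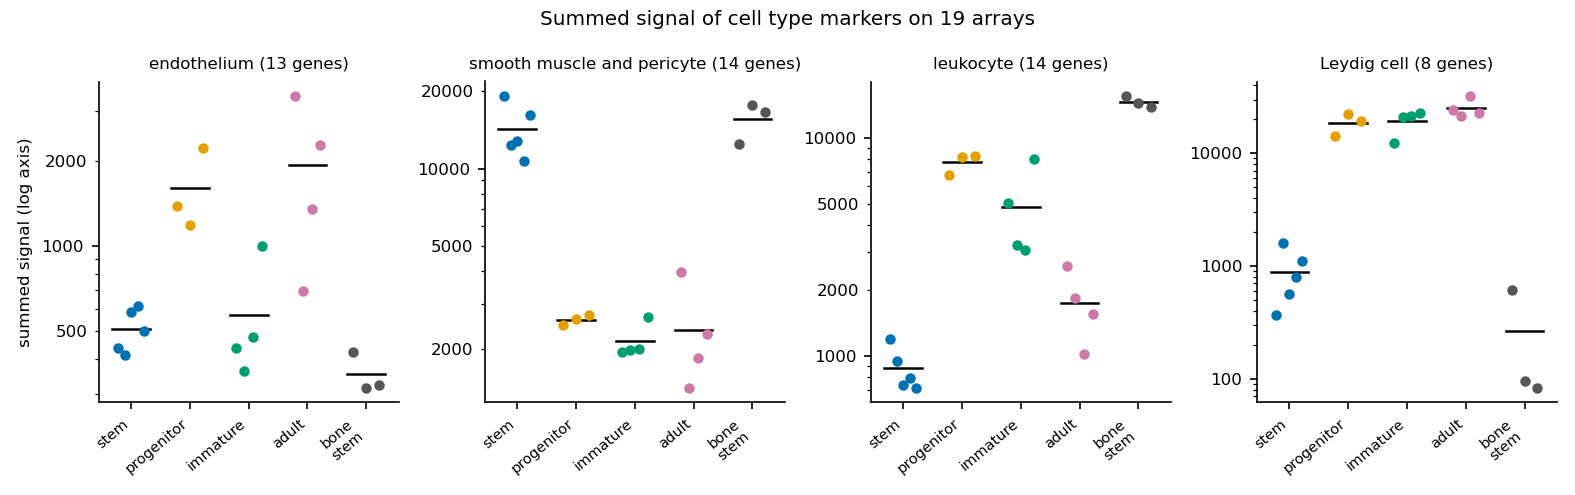
Summed signal of 4 lists of cell type markers on each of the 19 arrays (log axis), 1 point per array with a bar at the group mean. Endothelial markers reach 3400 on adult replicate 1, smooth muscle and pericyte markers are highest in stem Leydig and bone stem cells, and leukocyte markers are highest in bone stem cells.

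Over the 8 genes, 1 rose and 2 fell from stem to progenitor cells, that is 37.5% of the members against 36.7% of all probe sets (22% higher and 14.7% lower) and 45.3% of all genes taken by their brightest probe set. The members' share exceeds the share of probe sets by little and lies under that of genes. From progenitor to immature cells 0 of 8 passed in limma, where 1.3% of all probe sets and 1.94% of all genes did, and 1 gene, Hes1, had an unadjusted p under 0.05. From immature to adult cells 0 of 8 passed in limma, against 21.1% of all probe sets and 29.3% of all genes, and 0 had an unadjusted p under 0.05. Between adult and stem Leydig cells 4 of 8 passed, 2 higher and 2 lower, against 41.8% of all probe sets (21.3% higher and 20.5% lower) and 53.7% of all genes. Between stem Leydig and bone stem cells 3 of 8 passed, 2 higher and 1 lower in stem Leydig cells, against 18.5% of all probe sets (9.79% higher and 8.73% lower) and 23.9% of all genes. Groups that did not overlap were seen for 3, 1, 0, 2 and 3 of the 8 genes in these comparisons, in the same order, and for 36.6%, 8.05%, 22.9%, 38.5% and 25.2% of all probe sets. The median difference of the 8 genes was -0.12 from stem to progenitor cells, where that of all genes was 0.08. Among the 4 Leydig stages, the F-test in limma passed for Notch1 (adjusted p = 6.28e-06), Hes1 (1.22e-05) and Hey2 (0.00647), or 3 of 8, against 50.7% of all probe sets.

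Ordering the 5 groups by mean for each gene gave 32 pairs of neighbours, of which 2 differed. For Notch1 the order was progenitor, adult, immature, bone stem and stem Leydig cells, and the step between the last of these was the one that differed. For Hes1 it was stem Leydig, adult, immature, bone stem and progenitor cells, and the step from stem Leydig to adult cells was the one that differed. Hey2 ran from stem Leydig through bone stem, adult and immature to progenitor cells, with no neighbouring step past the test. Without stem Leydig replicate 3 the sign of its first step turned, with stem minus bone stem at -0.20. Hey1 ran from adult through progenitor, immature and stem Leydig to bone stem cells, again with none past the test. For Notch2, Notch3, Jag1 and Dll1 no neighbours differed.

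**Figure D3:**
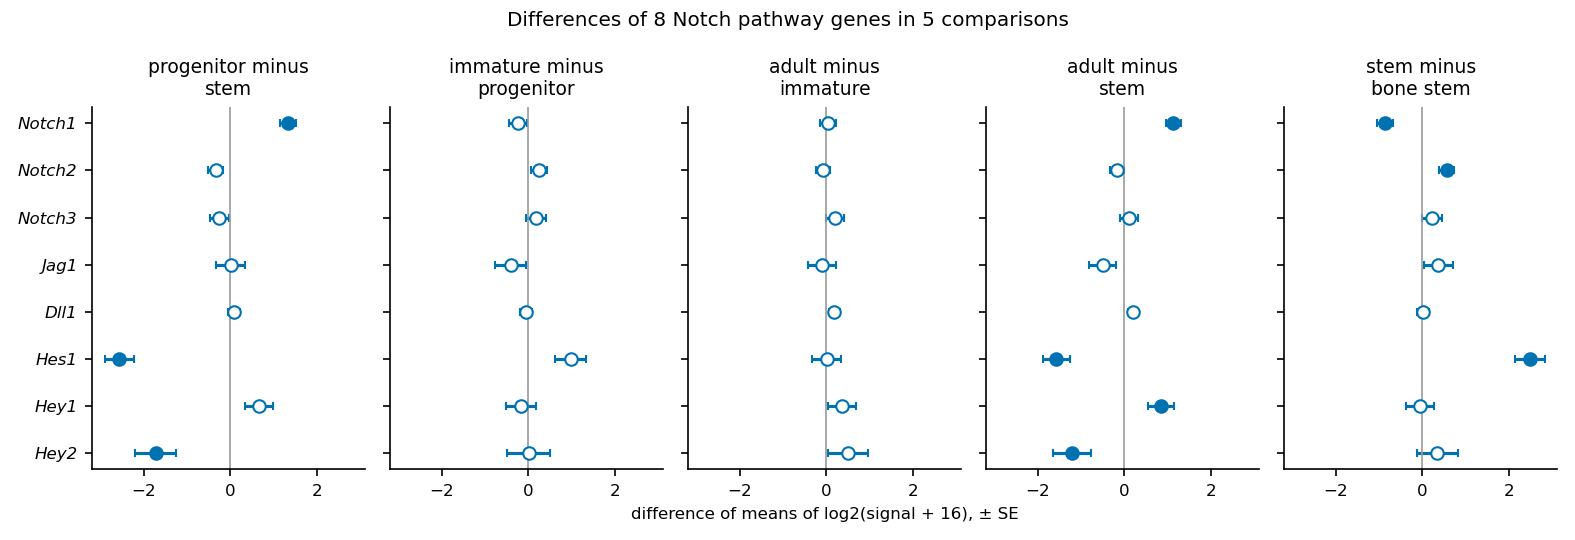
Difference of means of log2(signal + 16) ± SE for the 8 genes in 5 comparisons, with filled points where the adjusted p was below 0.05. From stem to progenitor cells Notch1 lies at 1.33 and Hes1 at -2.57, and no point is filled in the steps from progenitor to immature and from immature to adult cells.

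Within groups, the target genes Hes1, Hey1 and Hey2 varied with Notch1 from array to array. Over the 19 arrays, with each value taken as its deviation from the group mean, the correlation with Notch1 was r = 0.86 for Hey1, 0.81 for Hey2 and 0.72 for Hes1. The median over 14216 genes was 0.09, and 0.0422%, 0.0985% and 0.521% of genes had a correlation with Notch1 as high as these. Without stem Leydig replicate 3 the correlations were 0.77, 0.64 and 0.63, and 0.359%, 2.73% and 3.16% of genes were as high, so that array moved these shares by more than 1.5 times. With the second Notch1 probe set the correlations were 0.56, 0.45 and 0.33. For the other genes listed as targets no such correlation was computed, so this covers Hes1, Hey1 and Hey2 only. Heyl, one of those others, did not move with Notch1 on every array. It deviated by 0.41 on adult replicate 1, where Notch1 deviated by 0.27. On stem Leydig replicate 3 Heyl deviated by -0.05, against 0.57 for Notch1, and on progenitor replicate 3 by -0.49, against 0.32. The points share arrays and their scaling, and these values are a description.

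Single arrays stood out across several of the genes. Stem Leydig replicate 3 was the highest stem array for Notch1, Dll1, Hes1, Hey1 and Hey2, 5 of the 8, while it was the highest for 30.1% of all genes. Adult replicate 1 was the highest adult array for 7 of the 8, all but Hes1, against 22.6% of all genes. It also had the highest adult sums of endothelial (3400), smooth muscle and pericyte (3965), leukocyte (2581) and germ cell (3108) markers. It did not have the highest sums of Leydig cell, Sertoli cell, erythroid or bone and mesenchymal stem markers. The part of these markers was not tested. Bone stem replicate 1 was the highest bone array for 7 of the 8, all but Dll1, against 44.4% of all genes. Immature replicate 3 was the highest immature array for 5 of the 8, against 30.5% of all genes. Progenitor replicate 3 was also highest for 5 of the 8, but this is near its share of 49.3% of all genes.

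**Figure D4:**
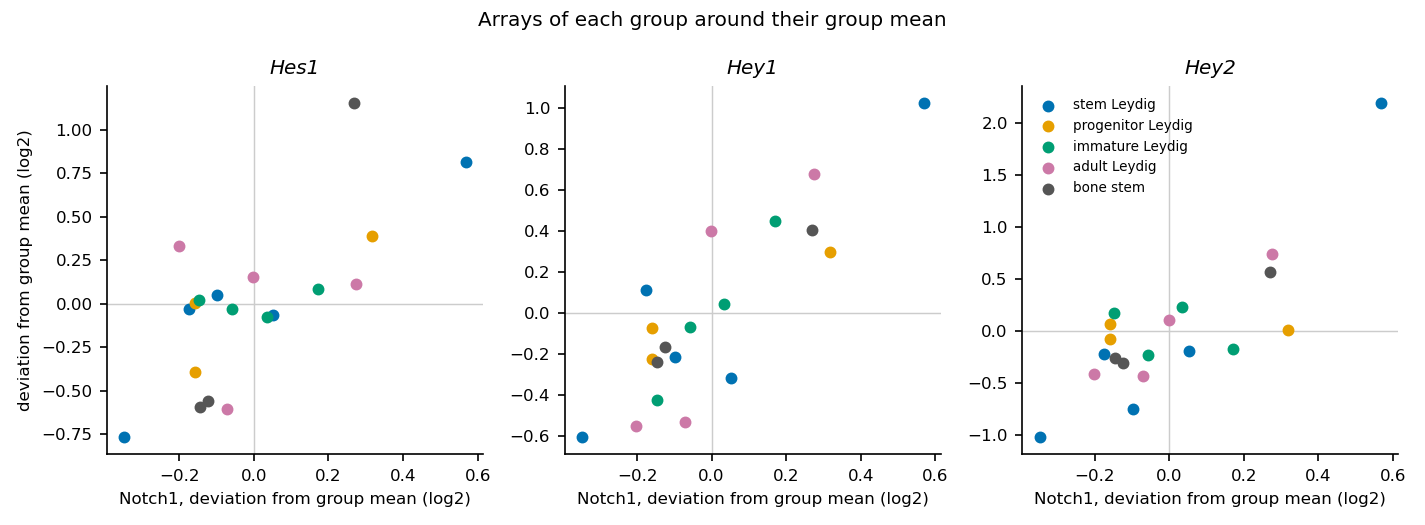
Hes1, Hey1 and Hey2 against Notch1 on the 19 arrays, each as the deviation of log2(signal + 16) from its group mean, coloured by group. The stem Leydig array at the upper right of the Hey1 and Hey2 panels is replicate 3, and the correlations are 0.72, 0.86 and 0.81.

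The other genes of the pathway, 46 measured of 57 listed, were set beside these 8. From stem to progenitor cells 16 rose and 6 fell, or 47.8%, against 45.3% of all genes. With median centring of the arrays, which moved the median difference of all probe sets from 0.08 to -0.15, the split was 8 higher and 14 lower. From progenitor to immature cells 1 rose and 0 fell in limma, against 1.94% of all genes, with 9 at an unadjusted p under 0.05. From immature to adult cells 2 rose and 9 fell, against 29.3% of all genes, and with median centring 6 rose and 4 fell, the median of all probe sets moving from -0.07 to 0.11. Between adult and stem Leydig cells 15 were higher and 13 lower, against 53.7% of all genes. Between stem Leydig and bone stem cells 7 were higher and 2 lower, against 23.9% of all genes. That split was 6 and 5 with median centring, 10 and 8 with array weights, 4 and 0 without bone stem replicate 2, and 4 and 1 without bone stem replicate 3.

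Of 6 other receptors and ligands, 3 rose from stem to progenitor cells. Jag2, a Jagged ligand, rose from 6.92 ± 3.76 (SD, n = 5) to 24.0 ± 4.70 (n = 3), a difference of 0.81 ± 0.17 (limma, adjusted p = 0.00084). Dll4, the Delta ligand known from blood vessels, rose from 18.98 ± 3.35 to 39.9 ± 11.3, by 0.66 ± 0.17 (limma, adjusted p = 0.00387), a call lost with median centring or quantile normalization and not made on its other probe set (0.45). Dlk1, a Delta-like protein, rose from 152 ± 75.0 to 348 ± 80.9, by 1.22 ± 0.32 (limma, adjusted p = 0.00491). Dlk1 then fell by 1.19 ± 0.31 from immature to adult cells (limma, adjusted p = 0.00883), where its signal was 75.6 ± 15.6 (n = 4). In bone stem cells Dlk1 was at 9.32 ± 7.74 (n = 3), below stem Leydig cells by 2.64 on the log2 scale (limma, adjusted p = 4.3e-06). Notch4 and Dll3 passed none of the 5 tests, and Dlk2 was lower in stem Leydig than in bone stem cells, at -0.61 ± 0.17 (limma, adjusted p = 0.0134). The Dlk2 call was lost without bone stem replicate 1 or 2, with 1 added in place of 16 and with only these groups in the model (adjusted p up to 0.0951).

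Of 6 other genes listed with the targets, Nrarp and members of the Hes and Hey families, 3 rose from stem to progenitor cells and 0 fell. They were listed by name, and whether Notch drives each of them was not tested. Heyl, a repressor related to Hey1, rose from 4.81 ± 3.61 to 25.1 ± 13.1 on 1 probe set, by 0.95 ± 0.23 (limma, adjusted p = 0.00218). Its second probe set gave -0.13 ± 0.16 and did not pass, so the probe sets of Heyl disagree. Hes6 and Hes3, of the Hes family, rose by 0.47 ± 0.14 (limma, adjusted p = 0.013) and 0.46 ± 0.13 (0.00929). All Hes3 arrays of these groups were under 16, at 1.95 ± 0.887 (SD, n = 5) in stem Leydig and 9.02 ± 5.05 (n = 3) in progenitor cells, so its fold is understated and rests on low signals. Both calls were lost with median centring, that of Hes6 also without progenitor replicate 2 (up to 0.301) and that of Hes3 without progenitor replicate 1 (up to 0.176). Nrarp, a target that feeds back on Notch, was higher in adult than in stem Leydig cells by 0.66 ± 0.22 (limma, adjusted p = 0.0185), a call lost with a replicate block and without adult replicate 1 (up to 0.106). Its other probe sets, at 0.18 and 0.58, did not pass. Hes2 passed none of the 5 tests. Hes5 passed none on its brighter probe set, but its other probe set was higher in progenitor than in stem Leydig cells by 0.70 ± 0.19 (limma, adjusted p = 0.00592), with means of 16.5 and 3.31, and in adult than in stem Leydig cells by 0.58 ± 0.17 (0.0105). The probe sets of Hes5 disagree.

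Among 19 genes of ligand and receptor processing, 4 rose and 2 fell from stem to progenitor cells. Dtx1, encoding the Deltex ubiquitin ligase that binds Notch, rose from 9.16 ± 6.05 to 357 ± 34.5, by 3.92 ± 0.23 (limma, adjusted p = 2.64e-11). Mfng, a Fringe enzyme that adds sugar to Notch, rose by 1.68 ± 0.25 (1.44e-05), and Fbxw7, part of a ligase that marks cleaved Notch for breakdown, by 1.14 ± 0.20 (0.000117). Numbl, a relative of the Notch inhibitor Numb, fell by 1.87 ± 0.22 (1.1e-06), and Poglut1, which adds glucose to Notch, fell by 1.16 ± 0.18 (2.7e-05). In adult cells Numbl was at 36.6 ± 16.9 and Poglut1 at 134 ± 29.6, against 456 ± 59.4 and 652 ± 46.5 in stem Leydig cells. Psen2, the presenilin of gamma-secretase, rose by 0.61 ± 0.16 from immature to adult cells (limma, adjusted p = 0.0102), and Numbl fell by 1.18 ± 0.22 (0.000458). The proteases Adam10, which cuts the bound receptor, and Furin, which cuts the receptor during its maturation, were higher in stem Leydig than in bone stem cells. Adam10 was at 108 ± 37.3 (SD, n = 5) against 43.3 ± 4.23 (n = 3; limma, adjusted p = 0.0173), and Furin was higher by 0.79 ± 0.17 (0.00191). The Adam10 call was lost without bone stem replicate 2 or 3 (up to 0.0755) and was not made on its second probe set (0.56).

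Among 15 nuclear cofactors, 6 rose and 4 fell from stem to progenitor cells. The largest rises, on the brightest probe sets, were those of Kat2a by 1.07 (limma, adjusted p = 1.09e-05), Tle3 by 0.81 (2.87e-05) and Ep300 by 0.74 (0.00991). The Ep300 call was lost with median centring and without progenitor replicate 3 (up to 0.0888). Rbpj, the DNA-binding partner of cleaved Notch, had a signal of 793 ± 145 (SD, n = 5) in stem Leydig cells, 419 ± 18.1 in progenitor cells (n = 3), 418 ± 101 in immature cells (n = 4) and 268 ± 8.58 in adult cells (n = 4). Rbpj fell by 0.88 ± 0.16 from stem to progenitor cells (limma, adjusted p = 0.000142), and its other two probe sets fell by 1.53 and 1.02. Adult minus stem was -1.49 ± 0.14 (limma, adjusted p = 2.78e-08). Maml2, on its brightest probe set, fell by 0.52 from stem to progenitor cells (limma, adjusted p = 0.0147), a call lost without progenitor replicate 1 (0.109). Adult cells were lower in Maml2 than immature cells by 0.60 (0.00821) and than stem Leydig cells by 0.91 (3.5e-05). Stem Leydig cells exceeded bone stem cells in Maml2 by 0.64 (0.00815), a call lost without bone stem replicate 2 (0.0674). Tle1, a Groucho corepressor that works with Hes proteins, fell by 1.11 ± 0.16 from stem to progenitor cells (limma, adjusted p = 1.53e-05), and was higher in stem Leydig than in bone stem cells by 1.71 ± 0.16 (1.66e-07). Kat2b, a histone acetyltransferase, was the gene that rose from progenitor to immature cells, by 0.63 ± 0.14 (limma, adjusted p = 0.0326). That call was lost under 11 of 28 alternatives (adjusted p up to 0.226), among them the fits without any 1 of the progenitor arrays or without immature replicate 1, 2 or 3. Adult cells exceeded stem Leydig cells in Kat2b by 1.22 ± 0.13 (limma, adjusted p = 8.44e-08). A second Kat2b probe set passed neither test, at 0.74 and 0.47. Hdac1, a histone deacetylase of corepressor complexes, fell by 0.65 ± 0.12 from immature to adult cells (limma, adjusted p = 0.00034), while its second probe set, at -0.50, did not pass. Tle3, a relative of Tle1, was lower in stem Leydig than in bone stem cells, at -0.46 ± 0.13 (limma, adjusted p = 0.014), a call lost without bone stem replicate 2 or 3 (up to 0.078).

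**Figure D5:**
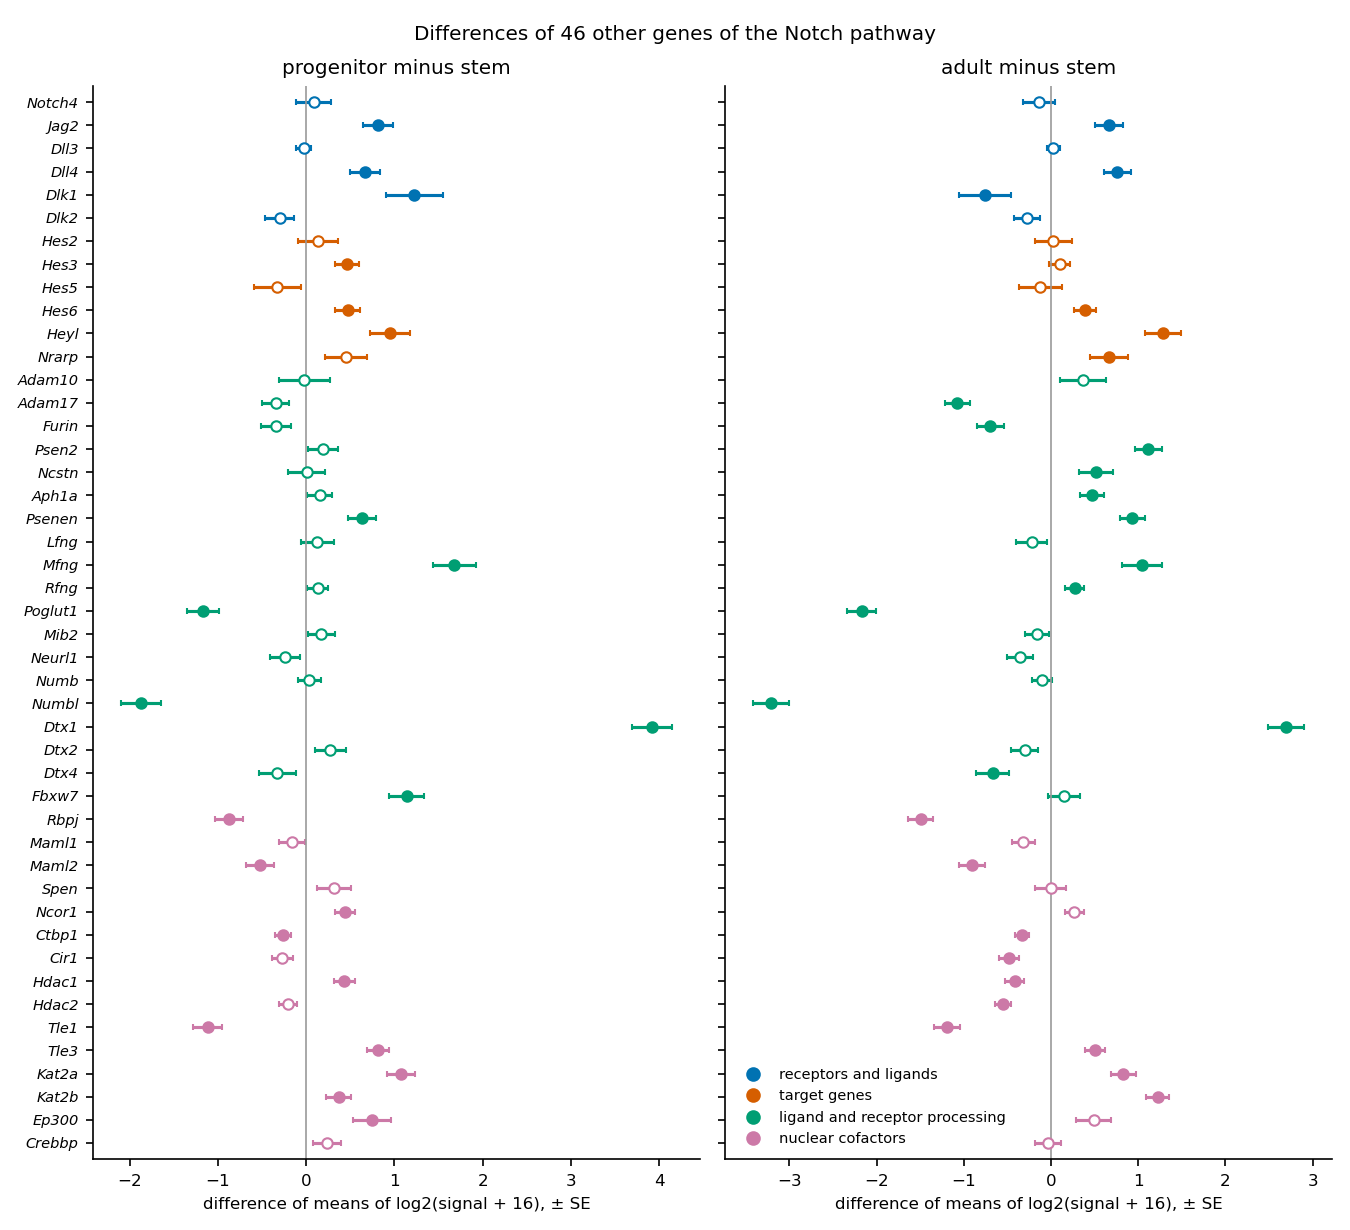
Difference of means of log2(signal + 16) ± SE for 46 other genes of the pathway, for progenitor minus stem and adult minus stem Leydig cells, coloured by role and filled where the adjusted p was below 0.05. Dtx1 lies at 3.92 and 2.70, Numbl at -1.87 and -3.21, and Rbpj at -0.88 and -1.49.

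For each gene, the 3 genes with the most similar pattern were taken by Pearson's r of log2(signal + 16) over the 19 arrays, among 5797 genes whose group means spanned at least 1. For Notch1 these were Mt2A (r = 0.95), Clec2l (0.92) and Fli1 (0.92). For Hes1 they were Cyp2j4 (0.89), Anxa3 (0.86) and Nexmif (0.86). For Hey2 they were Trpc6 (0.91), Il6 (0.89) and Casq2 (0.89), and for Hey1 Mecom (0.84), Sox18 (0.83) and Rgs5 (0.82). The highest value was 0.77 for Notch2, with Slc39a10, 0.71 for Dll1, with Chodl, 0.67 for Jag1, with Pxdn, and 0.65 for Notch3, with Chrm3. The arrays share their groups and scaling, so these values describe likeness over these arrays.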

How the data were processed

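RNA of 19 samples in 5 groups, named by the labels, was measured on Affymetrix rat arrays. RNA was extracted with Trizol and RNeasy, and biotin-labelled cRNA was made from total RNA, per the labels' protocols. The authors deposited linear signal intensities, 1 per probe set and array. The submitters' processing notes name MAS5 and GCOS as the software. They were already scaled, with a 2% trimmed mean of about the same size on each array. No versions and no detection calls were given in the sources used here, so signals under 16 were treated as low and not as absent.

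From these values log2(signal + 16) was taken, without further normalization. After leaving out 57 control probe sets, limma 3.58.1 in R 4.3.3 (lmFit and eBayes with an intensity trend) was fitted to all 19 arrays with a mean for each of the 5 groups, and p-values were adjusted by Benjamini-Hochberg over 31042 probe sets. The model was tested on simulated data. A gene with several probe sets is represented by its brightest one, judged by the mean of all 19 arrays, and 20826 probe sets carry 1 gene symbol. The genes named are all 8 members and the other genes listed as receptors, ligands and targets. Of the processing and nuclear lists, up to 3 called genes a direction are named by size of change. Also named are the 3 most similar genes per member and the brightest markers. Where a gene fell outside this rule, that is said beside it. The members and all gene lists were chosen with earlier results of these data known. Replicate numbers were checked for pairing through the correlation of same-numbered samples' deviations from their group means, which ran from -0.18 to 0.30 over the comparisons, and they were not taken to pair samples. Precision is limited by the 3 to 5 arrays in a group.

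Alternatives covered the normalization, the added constant, a filter on the lowest 40% of probe sets, the intensity trend, array weights and the replicate block. They also covered a 2-fold minimum, the groups in the fit, the mean of a gene's probe sets, the closest pairs of arrays averaged and each replicate left out. Progenitor replicate 3 and immature replicate 4 were also left out together. Leaving out stem Leydig replicate 3 and bone stem replicate 1 together was added after seeing the data.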

Additional observations from a re-analysis of the deposited data

Results flagged for a closer look

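Each gene was looked at in the groups of 4 and 5 arrays for an array far from the others, in 24 combinations of gene and group, and 2 stood out. For normally distributed values chance alone gives about 1 in 20. That rate need not hold for these linear signals, and the combinations share arrays.

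Hey2 was at 289 on stem Leydig replicate 3. Its gap to the nearest stem Leydig array was 0.907 of the group's whole range, above the critical value of 0.71 for 5 arrays. The same array was the highest of its group for Notch1, Hes1, Hey1 and Dll1.

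Notch3 was at 49.7 on immature replicate 3, with a gap of 0.865 of the range against a critical value of 0.829 for 4 arrays. That array was the highest of the immature group for 5 of the 8 genes, Notch1, Notch2, Hes1 and Hey1 besides Notch3. It was the highest for 30.5% of all genes.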

How the results depend on the processing

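No difference of the 8 genes that passed the test reversed under any alternative. Of 870 values of single genes under the alternatives, 843 kept their side of the threshold, 5 came to pass and 22 ceased to pass. Among the 843, the sign turned in 48, spread over 13 differences, and 0 of these 48 passed the test as reported or under the alternative. Hes1 passed under every alternative run in the comparisons of progenitor, adult and bone stem cells with stem Leydig cells, with adjusted p at most 0.00266. The 8 genes' count for stem against bone stem cells was 1 with a 2-fold minimum, and the number of neighbouring groups that differed was then also 1. For adult against stem Leydig cells the count was 2 with only those groups in the model. Leaving out 1 replicate at a time gave 3 to 4 genes for progenitor against stem cells, 0 to 0 for both later steps, 2 to 4 for adult against stem cells, 2 to 3 for stem against bone stem cells, 3 to 4 for the test over the Leydig stages and 2 to 4 for neighbouring groups. The count of 2 for adult against stem cells came without adult replicate 4, and that of 4 neighbouring groups without stem Leydig replicate 3. Leaving out stem Leydig replicate 3 and bone stem replicate 1 together, chosen after seeing the data, gave 1 gene from progenitor to immature cells, Hes1 (limma, adjusted p = 0.0343). The cause of these changes was not tested beyond the smaller set of arrays or the stricter call that defines them.

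In the fit with a replicate block, the counts of genes were 3, 0, 0, 3 and 3 in the order of the 5 comparisons, 3 for the Leydig stages and 3 for neighbouring groups, and Hey1 between adult and stem cells no longer passed (limma, adjusted p = 0.0572). The samples share only a number. Over all probe sets, the calls from progenitor to immature cells ran from 17 with only those groups in the model to 1456 with array weights, around 404. With a 2-fold minimum the counts fell to 4379 for progenitor against stem, 1796 for adult against immature, 5473 for adult against stem and 1902 for stem against bone stem cells, from 11385, 6547, 12978 and 5749, and array weights gave 10996 for the last. The share of higher calls from stem to progenitor cells was 59.9% as reported, 49.2% with quantile normalization and 34.3% with median centring, and from immature to adult cells 38.2%, 48.7% and 65.2%. It was 52.9% and 40.7% with median centring for stem against bone stem cells. Notch2 and Dll1 were not tested with the lowest 40% of probe sets left out. Low signal over background limits Notch2, Dll1 and the low groups of Hey2.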

Other observations

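The 4 measured subunits of gamma-secretase, the enzyme that frees the inner part of cleaved Notch, were all higher in adult than in stem Leydig cells, a comparison in which 53.7% of all genes passed the test. This set, and Adam17 beside it, were singled out after their values were seen. Psen2, the catalytic presenilin, was at 121 ± 12.2 (SD, n = 4) against 48.2 ± 14.5 (n = 5), a log2 difference of 1.11 ± 0.15 (limma, adjusted p = 4.41e-06). Psenen, which completes the enzyme, differed by 0.93 ± 0.15 (2.17e-05), Aph1a by 0.47 ± 0.13 (0.00684) and Ncstn, which binds the substrate, by 0.51 ± 0.19 (0.0385). The Ncstn call was lost under 8 of 28 alternatives and the other calls under 0 of 28. Adam17, a protease that can cut receptors outside the membrane, was lower in adult cells by 1.07 on the log2 scale (limma, adjusted p = 2.16e-06).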
